A study of Mus musculus with 27 samples.

Results

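The genes described here are 39 mouse genes of the endoplasmic reticulum (ER) stress response, of protein folding and degradation in the ER and of entry into the secretory pathway. They were taken as a fixed list of symbols from a table of 35604 genes. The list was chosen with earlier results of these data known. All 39 genes were present and passed the filter that left 12147 genes for testing. The RNA came from wild-type mice, as polyadenylated transcripts of naive B cells of the spleen. Such cells were either left uncultured (naive) or kept for 6 h or 24 h with an agonist antibody to CD40, clone HM40-3, at 1 µg/mL. CD40 is the receptor through which helper T cells activate B cells. At each time this antibody was given alone, with IL-4 at 12.5 ng/mL, with IL-21 at 50 ng/mL, or with both cytokines. These 9 groups hold 3 libraries each, 27 in all. No group was cultured without the antibody, so what culture did and what anti-CD40 did cannot be told apart. The labels do not state that the 3 libraries of a group were separate mice or cultures, so the p-values below measure the spread between these libraries, which may be technical.

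Proteins bound for the cell surface or for secretion enter the ER through the Sec61 channel, lose their signal peptide to the signal peptidase, are glycosylated by the oligosaccharyltransferase and are folded by chaperones and disulphide isomerases. Proteins that fail to fold are returned to the cytosol and degraded, a route called ER-associated degradation (ERAD). The sensors ATF6, IRE1 (encoded by Ern1) and PERK (Eif2ak3) detect unfolded protein, and ATF6 and the spliced form of XBP1 switch on many of the other genes. B cells that become antibody-secreting plasma cells enlarge this machinery, and IL-4 and IL-21 are the cytokines by which helper T cells steer that step. The list holds 2 sensors, 11 chaperones and their cofactors, 4 disulphide isomerases, 7 ERAD genes, 7 subunits of the Sec61 channel and its associated TRAP complex, 5 subunits of the signal peptidase and the oligosaccharyltransferase, and 3 genes best known from plasma cells (Mzb1, Jchain and Sdc1).

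Values are in TPM, a unit of transcript abundance that is scaled for transcript length and for the total of the library. The summed TPM of the 39 genes made up 0.31 to 0.41% of all listed TPM in the naive libraries and 0.42 to 0.49% after 24 h with anti-CD40 alone. The share was 0.63 to 0.89% with IL-4, 0.66 to 0.75% with IL-21 and 1.05 to 1.08% with both cytokines at 24 h. These last 3 libraries lay above every other library. At 6 h the shares of the 4 stimulated groups ran from 0.37 to 0.66% and overlapped. Of the 39 genes, 30 had their highest group mean with both cytokines at 24 h and 20 had their lowest in naive cells. No such count was made over all tested genes, so neither number is shown to be particular to this list. The exceptions at the top were Atf6 and Ern1 (IL-21 at 24 h), Ssr4, Spcs1 and Ostc (IL-4 at 24 h), Hsp90b1 (IL-4 at 6 h), Mzb1 (anti-CD40 at 6 h), and Dnajb9 and Jchain (naive).

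**Figure D1:**
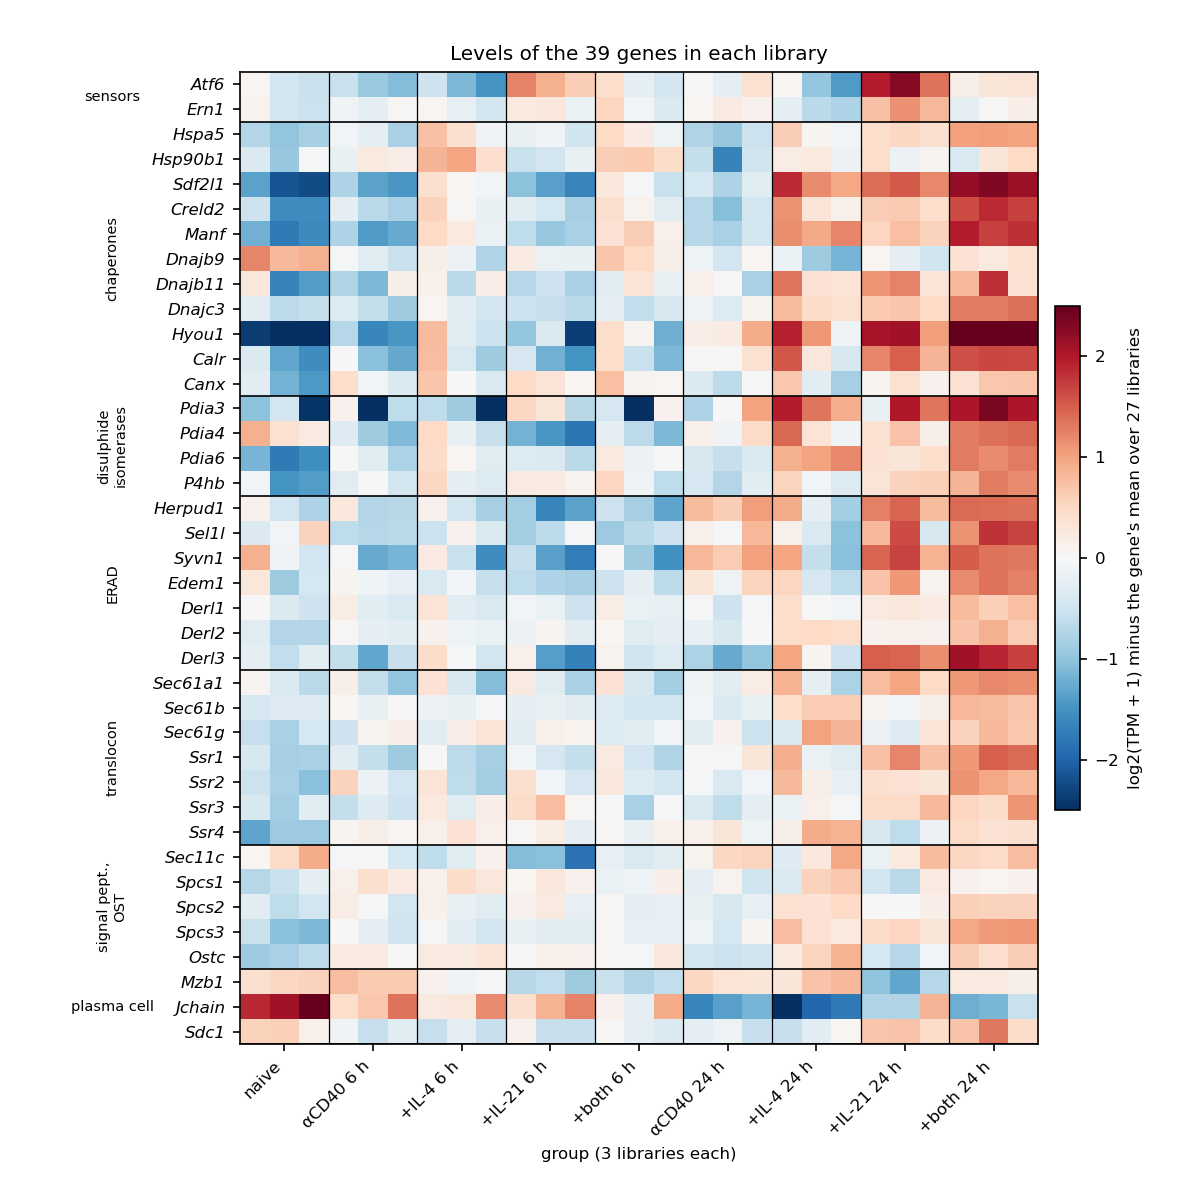
Level of each of the 39 genes (rows, grouped by role) in each of the 27 libraries (columns, 3 per group), as log2(TPM + 1) minus the mean of that gene over all libraries; colours end at 2.5 in either direction. The 3 columns with both cytokines at 24 h are red for most rows, while Jchain, Dnajb9 and Sec11c are among the rows that are red in naive cells.

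The genes differed in how far they moved. Between its lowest and highest group mean, Hyou1 went from 0.743 to 88.4 TPM, a 119-fold range. Jchain spanned 27.3-fold, Sdc1 21.3-fold, Sdf2l1 17.4-fold, Pdia3 14.8-fold and Derl3 13.2-fold. The lowest means of Hyou1, Sdc1, Pdia3 and Derl3 were small (0.743, 0.0811, 1.78 and 1.16 TPM), so their ratios are uncertain. At the other end, the signal peptidase subunit gene Spcs1 spanned 1.82-fold and the Derlin gene Derl1 2.04-fold. Each of the 39 genes passed in at least 1 comparison. The most abundant by mean TPM were Calr, Hspa5 and Sec61b, and the least abundant were Sdc1 and Ern1. Ssr2, a TRAP subunit, and Dnajb11, a J-domain cofactor of BiP, also belong to the list. Ssr2 ranged from 38.2 to 175 TPM over all libraries. On GRCm38, by GENCODE M21, the protein-coding genes named most often below lie at chr2:34771970-34777547 on the plus strand (Hspa5, ENSMUSG00000026864), chr16:17130138-17132383 on the minus strand (Sdf2l1, ENSMUSG00000022769), chr10:75893413-75895941 on the plus strand (Derl3, ENSMUSG00000009092), chr12:91806043-91849157 on the minus strand (Sel1l, ENSMUSG00000020964), chr1:170704674-170867771 on the minus strand (Atf6, ENSMUSG00000026663) and chr5:88519809-88527891 on the minus strand (Jchain, ENSMUSG00000067149).

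Promoter windows were searched because members of this list are textbook targets of ATF6 and XBP1 and many of them moved together. The windows are those of RefSeq on GRCm38.p6, 250 bases before to 50 bases after the annotated start, and 29 of the 39 genes matched one by symbol. The ER stress response element (ERSE) was searched as CCAAT, any 9 bases, then CCACG, and a related element, ERSE-II, as ATTGG, any 1 base, then CCACG. The motif TGACGTGG, a core of the unfolded protein response element, was the third. All were searched on both strands. ERSE was found in 9 of the 29 windows (31.0%) and in 39 of all 32851 windows of the table (0.119%). ERSE-II was found in 2 of the 29 (6.9%) and in 12 of all windows (0.0365%). TGACGTGG was found in 0 of the 29 and in 222 of all windows (0.676%). A match is a description of the letters only. The list holds genes known as ERSE targets, so the difference in shares is not independent of how such a list is drawn up. The 250 bases before the start of Hspa5 (chr2:34771840-34772089, plus strand), Hsp90b1 (chr10:86705445-86705694, minus strand) and Herpud1 (chr8:94386179-94386428, plus strand) are shown because these genes are the main chaperones and the ERAD gene to which the comparisons below return. They are written 5′ to 3′ in the direction of the gene, with the matched letters in capitals.
Hspa5: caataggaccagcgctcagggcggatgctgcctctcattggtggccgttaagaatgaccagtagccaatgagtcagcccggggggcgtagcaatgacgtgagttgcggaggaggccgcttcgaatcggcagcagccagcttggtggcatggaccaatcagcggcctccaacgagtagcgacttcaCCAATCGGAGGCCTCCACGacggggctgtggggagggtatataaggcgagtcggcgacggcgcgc
Hsp90b1: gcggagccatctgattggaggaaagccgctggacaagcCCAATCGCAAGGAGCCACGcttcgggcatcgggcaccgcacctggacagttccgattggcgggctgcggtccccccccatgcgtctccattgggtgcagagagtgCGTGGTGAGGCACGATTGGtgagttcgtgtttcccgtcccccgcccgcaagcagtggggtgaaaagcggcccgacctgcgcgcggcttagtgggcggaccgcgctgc
Herpud1: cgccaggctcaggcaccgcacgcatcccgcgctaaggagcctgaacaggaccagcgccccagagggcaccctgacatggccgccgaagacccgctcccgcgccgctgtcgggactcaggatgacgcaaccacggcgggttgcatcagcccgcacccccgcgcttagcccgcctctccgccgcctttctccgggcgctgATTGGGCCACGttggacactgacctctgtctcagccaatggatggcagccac
Hspa5 holds 1 ERSE, from base -65 to base -47 relative to the start, Hsp90b1 holds 2 on opposite strands, and Herpud1 holds 1 ERSE-II.

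The other 8 genes with a match are shown by the match in capitals and 20 bases on either side (8 for Dnajb11, whose match lies past the start), again in the direction of the gene, to let the spacing and the letters between both ends be compared. They lie at chr8:84847055-84847113, minus strand (Calr), chr11:50325780-50325838, minus strand (Canx), chr12:17266471-17266529, plus strand (Pdia6), chr14:118937807-118937865, plus strand (Dnajc3), chr15:88819500-88819558, plus strand (Creld2), chr10:75893222-75893280, plus strand (Derl3), chr19:6046512-6046570, plus strand (Syvn1) and chr16:22857844-22857870, plus strand (Dnajb11).
Calr: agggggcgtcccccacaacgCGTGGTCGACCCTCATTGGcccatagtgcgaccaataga
Canx: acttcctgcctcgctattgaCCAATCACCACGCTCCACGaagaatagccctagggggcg
Pdia6: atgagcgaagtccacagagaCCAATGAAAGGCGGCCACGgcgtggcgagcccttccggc
Dnajc3: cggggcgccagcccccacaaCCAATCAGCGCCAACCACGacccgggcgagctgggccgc
Creld2: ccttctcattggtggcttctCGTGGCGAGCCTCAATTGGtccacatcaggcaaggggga
Derl3: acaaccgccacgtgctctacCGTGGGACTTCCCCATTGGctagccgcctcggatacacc
Syvn1: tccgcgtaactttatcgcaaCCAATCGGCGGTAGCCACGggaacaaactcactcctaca
Dnajb11: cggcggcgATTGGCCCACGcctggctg
The first 7 are ERSE matches and Dnajb11 is the second ERSE-II match. In Calr, Creld2 and Derl3 the element is on the opposite strand and so reads from CGTGG to ATTGG. The changes of the 11 genes with a match and of the 18 without are set side by side here as a description, with no test. With IL-21 at 24 h, 6 of 11 and 6 of 18 rose, beside 17.8% of all tested genes, with median log2 differences of 1.04 and 0.39. With IL-4 at 24 h these counts were 6 and 6, beside 8.28%, with medians of 0.90 and 0.45. When IL-21 was added to IL-4 for 24 h they were 6 and 9, beside 21.8%, with medians of 0.82 and 0.77. Between 6 h and 24 h they were 9 and 8 with IL-21, beside 26.2%, and 8 and 13 with both cytokines, beside 20.8%.

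Changes are log2 differences of TPM + 1 with their standard error. On this scale a low gene shows less than its true change. They come from a limma model fitted to all 27 libraries and all 12147 genes, with Benjamini-Hochberg adjusted p-values. A gene is said to rise or fall where its adjusted p was below 0.05. The standard error of each gene pools all groups and can be too small for a group that varied more than the rest. TPM keeps no sequencing depth, so the depth behind low values is unknown. Beside each comparison's count with all libraries stands the share of all tested genes that passed in the same direction. Counts with 1 library left out, and some under other settings, stand without that share.

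In a few libraries values departed from their group. Replicate 1 of the naive group held 5.5% mitochondrially encoded transcripts against 12.71% and 13.54% in its other libraries, and replicate 1 of the 24 h group with IL-4 held 7.89% against 11.63% and 10.97%. Replicate 3 was also low in 2 of the 6 h groups, with 6.91% against 10.16% and 10.63% with IL-4, and 7.27% against 10.91% and 10.23% with IL-21. These last libraries were left out only 1 at a time. Results that rest on replicate 1 of the naive group or of IL-4 at 24 h are also given without both. The labelled cell type was checked by 5 B cell markers (Cd79a, Cd79b, Ms4a1, Cd22 and Pax5), which all were detected in every group, with sums from 280.7 to 3747 TPM, while the lists for T cells, NK cells and neutrophils summed to at most 3.215, 2.042 and 0.3684 TPM. In these bulk samples, fewer cells of a type and less RNA per cell cannot be told apart. Pdia3, Dnajb11 and Ssr3 were listed at low and scattered values, with Pdia3 at 0 in 2 libraries and Dnajb11 in 1, although every cell uses these genes. How transcripts were summed to genes is not given in the sources used here.

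The first comparison asks how cells stimulated through CD40 alone differ from uncultured ones. After 6 h, 10 of the 39 genes rose and 4 fell, where 16.6% of all tested genes rose and 13.3% fell. The median log2 difference of the 39 genes was 0.30 against 0.06 for all tested genes. After 24 h, 7 rose and 3 fell, beside 18.9% and 7.85% of all tested genes, with medians of 0.39 and 0.25. At 6 h, 3 of the 5 subunits of the signal peptidase and oligosaccharyltransferase rose, and 2 of the 3 plasma cell genes fell at both times. Hyou1, which exchanges the nucleotide of the chaperone BiP, was listed at 1.67, 0.439 and 0.122 TPM in naive cells, at 7.36, 3.42 and 4.01 after 6 h and at 14.5, 14.8 and 25.3 after 24 h. The 3 groups did not overlap, and the differences from naive were 1.81 ± 0.54 (adjusted p = 0.0131) and 3.51 ± 0.54 (adjusted p = 4.1e-05).

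At 6 h the signal peptidase subunits Spcs1 and Spcs3 rose by 0.75 and 0.66, the oligosaccharyltransferase subunit Ostc by 0.95 and the TRAP subunit Ssr4 by 1.14. Ostc was at 93.5, 100.3 and 112 TPM in naive cells and at 206, 207 and 182 after 6 h with anti-CD40, without overlap. The isomerase Pdia6 rose by 1.12 ± 0.19 (adjusted p = 8.89e-05) at 6 h and by 1.04 ± 0.19 (adjusted p = 0.000348) at 24 h, from 123, 80.2 and 94.6 TPM in naive cells. The lectin chaperone Canx (0.97) was also called at 6 h, but the Canx values of both groups overlapped. At 24 h the rises included Sdf2l1, a cofactor of BiP (1.41 ± 0.26, adjusted p = 0.000375), Manf, an ER protein that binds BiP (0.86 ± 0.19, adjusted p = 0.00178), and the ERAD scaffold Herpud1. Herpud1 was at 75.1, 49.9 and 40.3 TPM in naive cells, 83.6, 41.6 and 42.7 after 6 h and 121, 107 and 144 after 24 h, a difference of 1.19 ± 0.36 (adjusted p = 0.0175) between 24 h and naive. Hspa5, which encodes BiP itself, was at 279.7, 236 and 262 TPM in naive cells, 443, 395 and 265 at 6 h and 277, 240.4 and 320.3 at 24 h, and passed at neither time (0.47 ± 0.21, adjusted p = 0.105, and 0.10 ± 0.21, adjusted p = 0.771).

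Jchain, which joins the units of polymeric antibodies, fell furthest. Jchain stood at 93.9, 109 and 195 TPM in naive cells, 33.8, 40.05 and 64.6 after 6 h and 7.32, 9.09 and 10.4 after 24 h, with differences of -1.48 ± 0.42 (adjusted p = 0.00936) and -3.69 ± 0.42 (adjusted p = 8.66e-07). The surface proteoglycan gene Sdc1 was at 1.22, 1.24 and 0.625 TPM in naive cells, 0.403, 0 and 0.216 at 6 h and 0.262, 0.348 and 0 at 24 h, and fell by 0.75 on the log2 scale at both times. Dnajb9, a J-domain cofactor of BiP, fell by 1.28 at 6 h and 1.16 at 24 h on that scale, from 45.4, 34.3 and 36.2 TPM, and the isomerase Pdia4 fell at 6 h (-1.27 ± 0.33, adjusted p = 0.00486). The naive libraries also held more transcripts of other cells. Erythroid and platelet markers summed to 682.7 to 1285 TPM there against 7.038 to 150.4 in all cultured libraries, and those of macrophages and monocytes to 24.54 to 35.58 against at most 9.299. Their part in these differences was not tested. The 6 plasma cell markers, of which Jchain and Sdc1 are 2, summed to 125.5 to 212.6 TPM in naive cells and 32.11 to 101.8 TPM in the 24 h groups. Of the calls, 6 of 14 at 6 h and 8 of 10 at 24 h held whichever library was left out. At 6 h, leaving out naive replicate 2 or 3 gave 8 calls, leaving out anti-CD40 replicate 1 or 2 gave 9, and the variance of the compared libraries alone gave 9. These last 9 were 5 rises and 4 falls, beside 13.6% and 11.4% of all tested genes. At 24 h, leaving out naive replicate 1 gave 18. Without the 2 libraries that stand apart, 15 rose and 4 fell at 6 h, beside 24.4% and 11.8% of all tested genes, and 17 rose and 3 fell at 24 h, beside 31.2% and 7.34%. Of all tested genes called, 55.5% were higher at 6 h and 70.7% at 24 h, but 44.8% and 44.9% after a median-of-ratios rescaling, which sets the typical gene equal between libraries. The members' own split then was 7 risen and 6 fallen at 6 h and 6 and 5 at 24 h. Beside these stood 15.9% and 19.7% of all tested genes at 6 h and 13.3% and 16.3% at 24 h.

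The next comparison asks what IL-4 adds to anti-CD40. It uses the same anti-CD40 libraries as the comparison for IL-21 further on, and the IL-4 libraries also serve as controls for IL-21 added to IL-4. After 6 h, Manf and Sdf2l1 rose and Mzb1 fell, while 1.65% of all tested genes rose and 2.4% fell. Manf was at 43.5, 27.3 and 30.8 TPM with anti-CD40 and at 106, 88.7 and 66.3 with IL-4, a difference of 1.33 ± 0.19 (adjusted p = 6.08e-05). Sdf2l1 was at 49.5, 32.8 and 30.3 TPM without and 112, 87.2 and 80.8 TPM with IL-4, a difference of 1.31 ± 0.26 (adjusted p = 0.00288). Mzb1 encodes an ER protein of B cells that helps antibody chains fold. Mzb1 went from 469.8, 429.8 and 432 TPM without to 294, 259 and 266 TPM with IL-4, a difference of -0.70 ± 0.14 (adjusted p = 0.00264). None of these groups overlapped, and each of the 3 calls held whichever library was left out. After a median-of-ratios rescaling the fall of Mzb1 did not pass (-0.73, adjusted p = 0.126), and 4 genes rose (these 2, Hspa5 and Creld2) and 0 fell. Of all tested genes 2.7% then rose and 3.58% fell. Across the 39 genes the median difference was 0.10, against 0.02 over all tested genes. Hspa5 was at 443, 395 and 265 TPM without and 772, 616 and 437 TPM with IL-4 at 6 h, where replicate 3 with IL-4 lay just below replicate 1 without it, and did not pass (0.72 ± 0.21, adjusted p = 0.064) unless the replicate number was a block (0.72 ± 0.18, adjusted p = 0.0168). Hsp90b1 was at 27.1, 36.9 and 34.9 TPM without and 56.5, 62.4 and 41.6 TPM with IL-4 and Creld2 at 50.5, 37.2 and 33.4 TPM without and 90.03, 61.4 and 52.3 TPM with IL-4, and neither passed (0.67 ± 0.28, adjusted p = 0.291, and 0.72 ± 0.28, adjusted p = 0.236) although the groups did not overlap.

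After 24 h with IL-4, 15 of the 39 genes rose and 1 fell, while 8.28% of all tested genes rose and 23.1% fell. The median of the 39 genes was 0.52 and that of all tested genes -0.31. The rises covered 6 of 11 chaperones, 1 of 4 isomerases, 2 of 7 ERAD genes, 3 of 7 channel subunits and 3 of 5 subunits of the signal peptidase and oligosaccharyltransferase. Sdf2l1 rose most, from 62, 48.9 and 69 TPM to 312, 194 and 166 TPM, a difference of 1.84 ± 0.26 (adjusted p = 1.78e-05). Hspa5 was at 277, 240.4 and 320.3 TPM without and 715, 491 and 446 with IL-4, a difference of 0.96 ± 0.21 (adjusted p = 0.00185). The ER chaperone of the HSP90 family, Hsp90b1, was at 20.1, 9.06 and 21.7 TPM without and 35.3, 36.8 and 28 TPM with IL-4, a difference of 1.01 ± 0.28 (adjusted p = 0.00885). In all 3 genes every library with IL-4 lay above every library without it. Replicate 1 with IL-4 was the highest of its group for Sdf2l1 and Hspa5.

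Manf rose by 1.77, the isomerase Pdia6 by 1.48 and Creld2, a gene switched on by ER stress, by 1.27. Pdia6 was at 209, 184 and 214 TPM with anti-CD40 and 512, 557 and 638 TPM with IL-4, without overlap. Creld2 was at 36.2, 28 and 43 TPM without and 131, 75.1 and 65.3 TPM with IL-4, the highest value again being that of replicate 1. Sec61b, the beta subunit of the channel, went from 346, 282 and 319.7 to 488, 564 and 564 TPM (0.77 ± 0.10, adjusted p = 9.32e-06), and Ostc from 129, 122 and 125 to 209.7, 263 and 327 TPM (1.06 ± 0.15, adjusted p = 1.87e-05). Sec61g (0.72), Spcs2 (0.68), Spcs3 (0.62) and Ssr4 (0.56) were called with them, while the pore-forming Sec61a1 did not pass (0.02 ± 0.40, adjusted p = 0.987). Sec61g and Ssr4 overlapped between groups, since replicate 1 with IL-4 was at 108.9 and 205.5 TPM.

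Of the sensors 0 of 2 rose at 24 h with IL-4. Ern1, the IRE1 sensor, was at 1.25, 1.5 and 1.34 TPM with anti-CD40 and 0.823, 0.348 and 0.265 TPM with IL-4 at 24 h, and was the only one of the 39 genes called lower with all libraries (-0.69 ± 0.23, adjusted p = 0.0268). Atf6 (-0.83 ± 0.33, adjusted p = 0.0644), Herpud1 (-0.87 ± 0.36, adjusted p = 0.073), the ubiquitin ligase gene Syvn1 (-1.04 ± 0.51, adjusted p = 0.122) and the gene of the ligase's adaptor, Sel1l (-0.72 ± 0.40, adjusted p = 0.173), did not pass with all libraries. Their estimates were negative, and Herpud1 with IL-4 spread over 133, 59.2 and 38.1 TPM. Derl3 and Derl2 of the Derlin family, which pull substrates out of the ER, rose by 1.19 and 0.66. Of 98 further genes of these pathways tested, 12 rose and 11 fell, beside 8.28% and 23.1% of all tested genes. The rises included the signal peptidase gene Sec11a (1.52 ± 0.57, adjusted p = 0.0458), Fkbp11 (a proline isomerase of secretory cells, 1.28 ± 0.31, adjusted p = 0.0034) and Srp19 (a signal recognition particle subunit, 0.85 ± 0.21, adjusted p = 0.00358). The falls included Ero1lb (an oxidase that recharges the isomerases, -1.52 ± 0.26, adjusted p = 0.000169) and the PERK gene Eif2ak3 (-1.01 ± 0.34, adjusted p = 0.0287). Xbp1 was not called (0.45 ± 0.37, adjusted p = 0.378), Atf4 was (0.64 ± 0.18, adjusted p = 0.0086), and the plasma cell regulator Irf4 fell (-1.26 ± 0.33, adjusted p = 0.00565).

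Of the 16 calls at 24 h, 10 held whichever library was left out (Hspa5, Sdf2l1, Creld2, Manf, Dnajc3, Pdia6, Derl2, Sec61b, Spcs2 and Ostc). Without the 2 libraries that stand apart 16 rose and 6 fell, beside 9.42% and 40.2% of all tested genes. The falls were then those of Ern1, Atf6 (-1.24 ± 0.31, adjusted p = 0.00254), Herpud1 (-1.35 ± 0.32, adjusted p = 0.00153), Syvn1 (-1.64 ± 0.47, adjusted p = 0.00648), Edem1 (-0.76 ± 0.24, adjusted p = 0.0114) and Dnajb9 (-0.84 ± 0.24, adjusted p = 0.00605). With the variance estimated from the 6 compared libraries alone, 5 rose and 0 fell, beside 2.08% and 5.43% of all tested genes. After median-of-ratios rescaling 23 rose and 1 fell, beside 18.3% and 16.6%. The medians were then 0.97 for the 39 genes and -0.02 for all tested genes. The share of all called genes that were higher went from 26.4% to 52.4%.

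**Figure D2:**
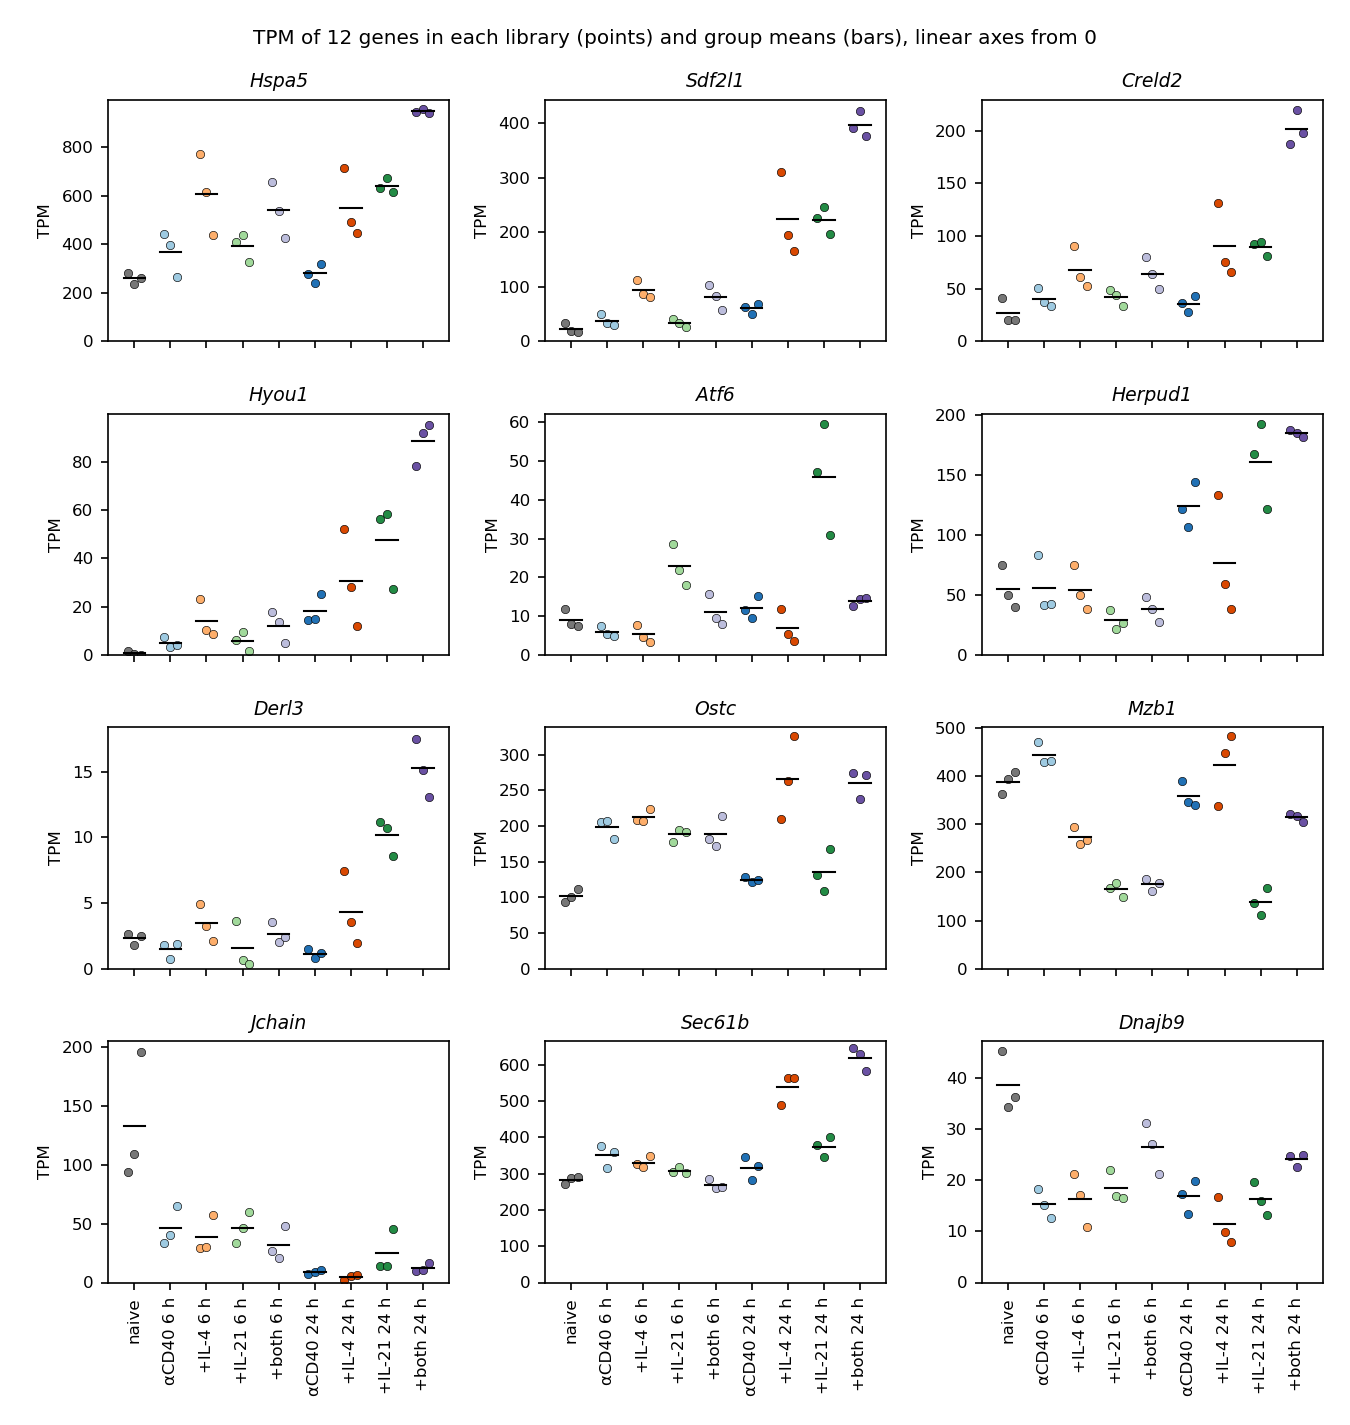
TPM of 12 of the genes in each library (points, 3 per group, in the order of the replicate numbers) with the group mean as a bar, on linear axes that start at 0. Sdf2l1, Creld2 and Hyou1 reach their highest values with both cytokines at 24 h, Atf6 with IL-21 alone, and Mzb1 is low in the groups with IL-21 except that with both cytokines at 24 h.

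IL-21 was compared with anti-CD40 alone in the same way. At 6 h, 2 of the 39 genes rose and 2 fell, beside 7.43% and 4.68% of all tested genes, and the medians were 0.01 and 0.10. The sensor gene Atf6 rose from 7.39, 5.49 and 4.88 TPM to 28.5, 21.9 and 18.1 TPM, without overlap, by 1.78 ± 0.33 (adjusted p = 0.000832). The TRAP subunit gene Ssr3 rose by 0.91 ± 0.25 (adjusted p = 0.0184), at levels of 3.4, 4.46 and 2.27 TPM with IL-21. Mzb1 fell from 469.8, 429.8 and 432 TPM to 168, 179 and 148 TPM, a difference of -1.43 ± 0.14 (adjusted p = 2.15e-07). Sec11c, a catalytic subunit of the signal peptidase, was at 28.5, 29.4 and 21.6 TPM without and 13.3, 13.7 and 7.51 TPM with IL-21, a difference of -1.17 ± 0.30 (adjusted p = 0.0115). Among the chaperones and isomerases 0 of 15 were called. Hspa5, for example, was at 409, 438 and 327 TPM with IL-21 (0.11 ± 0.21, adjusted p = 0.821). With the replicate number as a block Herpud1 was called as well, as a fall (-0.89 ± 0.26, adjusted p = 0.0259), from 83.6, 41.6 and 42.7 to 37.7, 21.8 and 26.8 TPM. B cell marker sums were 280.7 to 450.7 TPM with IL-21 at 6 h and 1174 to 2107 with anti-CD40 alone, and the part of that shift in the values of B cell genes such as Mzb1 was not tested. The calls of Atf6 and Mzb1 held whichever library was left out. Leaving out replicate 1 of the anti-CD40 group reduced the calls from 4 to 2. Median-of-ratios rescaling gave 2 rises and 5 falls, beside 8.78% and 7.57% of all tested genes.

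At 24 h, 15 of the 39 genes rose with IL-21 and 1 fell, beside 17.8% and 6.33% of all tested genes. The medians were 0.74 for the 39 genes and 0.23 for all tested genes. Both sensors, 6 of 11 chaperones, 2 of 4 isomerases, 1 of 7 ERAD genes, 1 of 7 channel subunits, 1 of 5 signal peptidase and oligosaccharyltransferase subunits and 2 of the 3 plasma cell genes rose. Atf6 was at 11.5, 9.65 and 15.2 TPM with anti-CD40 and 47.2, 59.5 and 31 TPM with IL-21, a difference of 1.81 ± 0.33 (adjusted p = 0.000368). Ern1 was at 1.25, 1.5 and 1.34 TPM without and 2.58, 3.74 and 2.83 TPM with IL-21, a difference of 0.77 ± 0.23 (adjusted p = 0.0188). The lowest library with IL-21 lay above the highest without it for both sensors.

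Derl3 rose most, from 1.49, 0.786 and 1.19 TPM to 11.2, 10.7 and 8.62 TPM, a difference of 2.38 ± 0.38 (adjusted p = 8.64e-05). Among the chaperones, Sdf2l1 went from 62, 48.9 and 69 to 226, 246 and 196 TPM (1.88 ± 0.26, adjusted p = 1.46e-05) and Hspa5 from 277, 240.4 and 320.3 to 631, 671 and 614 TPM (1.20 ± 0.21, adjusted p = 0.000256). Groups were apart for each of these genes. Creld2 was at 92.1, 94.2 and 81.4 TPM with IL-21 (1.31 ± 0.28, adjusted p = 0.00157) and Hsp90b1 at 42.2, 27.9 and 32.3 TPM (1.04 ± 0.28, adjusted p = 0.00946). Manf (1.27) and Dnajc3 (0.74), a J-domain cofactor that also inhibits PERK, rose as well, together with the isomerases P4hb (0.97) and Pdia6 (0.82). The ligase core did not pass, with differences of 0.35 ± 0.36 (adjusted p = 0.513) for Herpud1, 0.38 ± 0.40 (adjusted p = 0.519) for Sel1l and 0.51 ± 0.51 (adjusted p = 0.499) for Syvn1. Syvn1 without IL-21 was already at 46.9, 41.2 and 53.8 TPM, against 73.3, 86.5 and 48.1 TPM with it.

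Jchain rose from 7.32, 9.09 and 10.4 TPM to 14.2, 14.3 and 45.2 TPM with IL-21 at 24 h (1.16 ± 0.42, adjusted p = 0.0478), the group being led by replicate 3. Sdc1 went from 0.262, 0.348 and 0 TPM to 1.38, 1.44 and 1.04 TPM (0.93 ± 0.23, adjusted p = 0.00548). Mzb1 was the only one of the 39 genes called lower, from 390.5, 347 and 339 to 136, 111 and 167 TPM, a difference of -1.39 ± 0.14 (adjusted p = 1.57e-07). So 2 of the plasma cell genes rose and the third fell. The Jchain call was lost in 4 of 6 fits with 1 library left out, while those of Sdc1 and Mzb1 held. B cell marker sums were 2973 to 3229 TPM with anti-CD40 at 24 h and 1223 to 1645 with IL-21, and their part in the fall of Mzb1 was not tested. Sec11c was at 26.3, 35 and 51.5 TPM with IL-21 at 24 h and 31.4, 42.7 and 43.6 TPM without, and no difference was detected (-0.10 ± 0.30, adjusted p = 0.85). Of 98 further pathway genes, 14 rose and 1 fell, beside 17.8% and 6.33% of all tested genes. The rises included Erp44, an isomerase-like protein that retains unassembled antibody (2.06 ± 0.18, adjusted p = 2.35e-08), the ERAD ATPase gene Vcp (1.11 ± 0.30, adjusted p = 0.00841) and the oligosaccharyltransferase gene Stt3b (0.99 ± 0.30, adjusted p = 0.0186). The fall was that of Nucb2 (-1.09 ± 0.38, adjusted p = 0.0397). The stress factor gene Ddit3 rose (1.42 ± 0.52, adjusted p = 0.0482), as did Atf4 (0.54 ± 0.18, adjusted p = 0.0309), while Xbp1 did not pass (-0.12 ± 0.37, adjusted p = 0.849). Prdm1, the regulator that commits cells to the plasma cell fate, rose (1.10 ± 0.21, adjusted p = 0.000583) at a mean of 2.19 TPM with IL-21, and Irf4 fell (-1.21 ± 0.33, adjusted p = 0.00967).

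Of the 16 calls with IL-21 at 24 h, 11 held whichever library was left out (Atf6, Hspa5, Sdf2l1, Creld2, Manf, Dnajc3, Pdia6, Derl3, Ssr3, Mzb1 and Sdc1). The share of ribosomal protein transcripts was 18.34 to 23.87% in libraries with IL-21 at 24 h and 24.89 to 29.17% in those without. With these, mitochondrial and pseudogene transcripts removed and the rest rescaled, 12 rose and 2 fell, beside 14.7% and 9.85% of all tested genes. The medians were then 0.51 and 0.08. After median-of-ratios rescaling, 12 rose and 1 fell, beside 13.6% and 10.3%. The share of all called genes that were higher went from 73.8% to 57.0%. The 4 dendritic cell markers summed to 3.227 to 5.898 TPM with IL-21 and 0.3292 to 1.069 without, and their part in the result was not tested.

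IL-21 was also added to cells that received anti-CD40 and IL-4. At 6 h this moved 1 of the 39 genes. Mzb1 fell from 294, 259 and 266 to 187, 161 and 178 TPM, a difference of -0.64 ± 0.14 (adjusted p = 0.00979), and 0 rose, beside 1.28% and 1.25% of all tested genes in those directions. The medians were -0.14 and 0.06. Without replicate 1 of the IL-4 group the adjusted p for Mzb1 was 0.0671, and without replicate 2 of the group with both it was 0.075, so that in each case limma called 0 of the 39 genes, with 4 at an unadjusted p below 0.05. Libraries with the same replicate number deviated together in the 6 h groups. With that number as a block, Dnajb9 was called as well, as a rise of 0.69 ± 0.19 (adjusted p = 0.0497), which makes 2 calls. After median-of-ratios rescaling Mzb1 did not pass (-0.71, adjusted p = 0.183) and Atf6 was called instead, as a rise of 0.87 ± 0.24 (adjusted p = 0.039). B cell marker sums were 1142 to 1836 TPM with IL-4 and 524.6 to 806.9 with both cytokines, and their part was not tested.

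At 24 h, a total of 22 of the 39 genes were called for the same addition. Of these 21 rose and 1 fell, where 21.8% of all tested genes rose and 2.39% fell. The medians were 0.74 for the 39 genes and 0.38 for all tested genes. The ERAD genes led, 6 of 7 having risen. Sel1l was at 6.51, 4.26 and 2.36 TPM with IL-4 and 13.9, 22.9 and 21.1 TPM with both cytokines, a difference of 1.97 ± 0.40 (adjusted p = 0.00135). Derl3 was at 7.48, 3.54 and 1.99 TPM with IL-4 and 17.5, 15.1 and 13.1 TPM with both cytokines, a difference of 1.73 ± 0.38 (adjusted p = 0.00312). Herpud1 was at 133, 59.2 and 38.1 TPM with IL-4 and 188, 185 and 182 TPM with both cytokines, a difference of 1.45 ± 0.36 (adjusted p = 0.00737). The groups did not overlap in any of these, and replicate 1 was the highest of the IL-4 libraries each time. Syvn1 (1.62) and Edem1, a lectin that hands glycoproteins to ERAD (1.43), rose as well.

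Among the chaperones, Hyou1 went from 52.2, 28.1 and 11.8 to 78, 91.9 and 95.2 TPM (1.72 ± 0.54, adjusted p = 0.0262) and Hspa5 from 715, 491 and 446 to 946, 960.1 and 942 TPM (0.82 ± 0.21, adjusted p = 0.0102). Sdf2l1 reached 391, 423 and 376 TPM (0.87 ± 0.26, adjusted p = 0.0219) and Creld2 188, 219 and 198 TPM (1.21 ± 0.28, adjusted p = 0.00452). These were the highest values of the study for both genes. Hsp90b1, at 23.7, 38.3 and 44.1 TPM, did not pass (0.05 ± 0.28, adjusted p = 0.924). Atf6 rose from 11.9, 5.39 and 3.68 to 12.7, 14.3 and 14.6 TPM (1.03 ± 0.33, adjusted p = 0.0307), which left every library with both cytokines below each library with IL-21 alone. Ern1 was at 0.831, 1.21 and 1.41 TPM and did not pass (0.55 ± 0.23, adjusted p = 0.0853). The pore-forming Sec61a1 (1.20) and the TRAP subunit gene Ssr1 (1.19) rose, whereas for Sec61b (0.20 ± 0.10, adjusted p = 0.16) and Ostc (-0.01 ± 0.15, adjusted p = 0.973), which had risen with IL-4 alone, no further change was detected.

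Jchain rose from 2.44, 5.57 and 6.56 to 10.04, 10.6 and 16.5 TPM (1.24 ± 0.42, adjusted p = 0.0371) and Sdc1 from 0, 0.24 and 0.533 to 1.44, 2.7 and 1.04 TPM (1.09 ± 0.23, adjusted p = 0.00236). Mzb1 fell from 338, 447 and 483 to 322, 318 and 304 TPM (-0.41 ± 0.14, adjusted p = 0.0378). The call of Jchain was lost in 6 of 6 fits with 1 library left out and that of Mzb1 in 5 of 6. Sec11c was at 23.2, 35.5 and 58.6 TPM with IL-4 and 42.5, 41.5 and 50.6 TPM with both cytokines and did not pass (0.29 ± 0.30, adjusted p = 0.506). Of 98 further pathway genes 33 rose, among them 12 of 27 genes of ER to Golgi transport, and 0 fell. Of all tested genes 21.8% rose and 2.39% fell. Examples of the pathway rises are Ero1lb (1.46 ± 0.26, adjusted p = 0.000462), the catalytic oligosaccharyltransferase gene Stt3b (1.46 ± 0.30, adjusted p = 0.00163), Edem2, a mannosidase of ERAD (1.35 ± 0.40, adjusted p = 0.0208), and Sec16a, which organises ER exit sites (1.32 ± 0.36, adjusted p = 0.0123). Prdm1 rose (1.75 ± 0.21, adjusted p = 3.08e-06). Xbp1 did not pass (0.64 ± 0.37, adjusted p = 0.198), at a mean of 15.2 TPM with both cytokines and 9.46 with IL-4, nor did Irf4 (-0.08 ± 0.33, adjusted p = 0.884), Atf4 (0.45 ± 0.18, adjusted p = 0.0676) or Ddit3 (0.78 ± 0.52, adjusted p = 0.275).

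The count for this comparison changed with the libraries used and with scaling. Only 6 of its 22 calls held whichever library was left out (Creld2, Dnajc3, Sel1l, Edem1, Derl3 and Sdc1). Of the IL-4 libraries, leaving out replicate 1 gave 27 calls, replicate 2 gave 8 and replicate 3 gave 7, and of those with both cytokines replicate 2 or 3 gave 12. Without the 2 libraries that stand apart 24 rose and 3 fell, beside 43.4% and 5.64% of all tested genes. With the variance taken from the 6 compared libraries alone, limma called 0 of the 39 genes, with 24 at an unadjusted p below 0.05. Of all tested genes 2.35% rose and 0.469% fell in that fit. After median-of-ratios rescaling 8 rose and 1 fell, beside 10.5% and 10.6% of all tested genes, with medians of 0.25 and 0.000644. The share of all called genes that were higher went from 90.1% to 49.6%. The share of ribosomal protein transcripts was 21.94 to 22.65% with both cytokines and 23.02 to 29.23% with IL-4. Without them and the mitochondrial and pseudogene transcripts 15 rose and 1 fell, beside 16.5% and 4.42% of all tested genes.

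**Figure D3:**
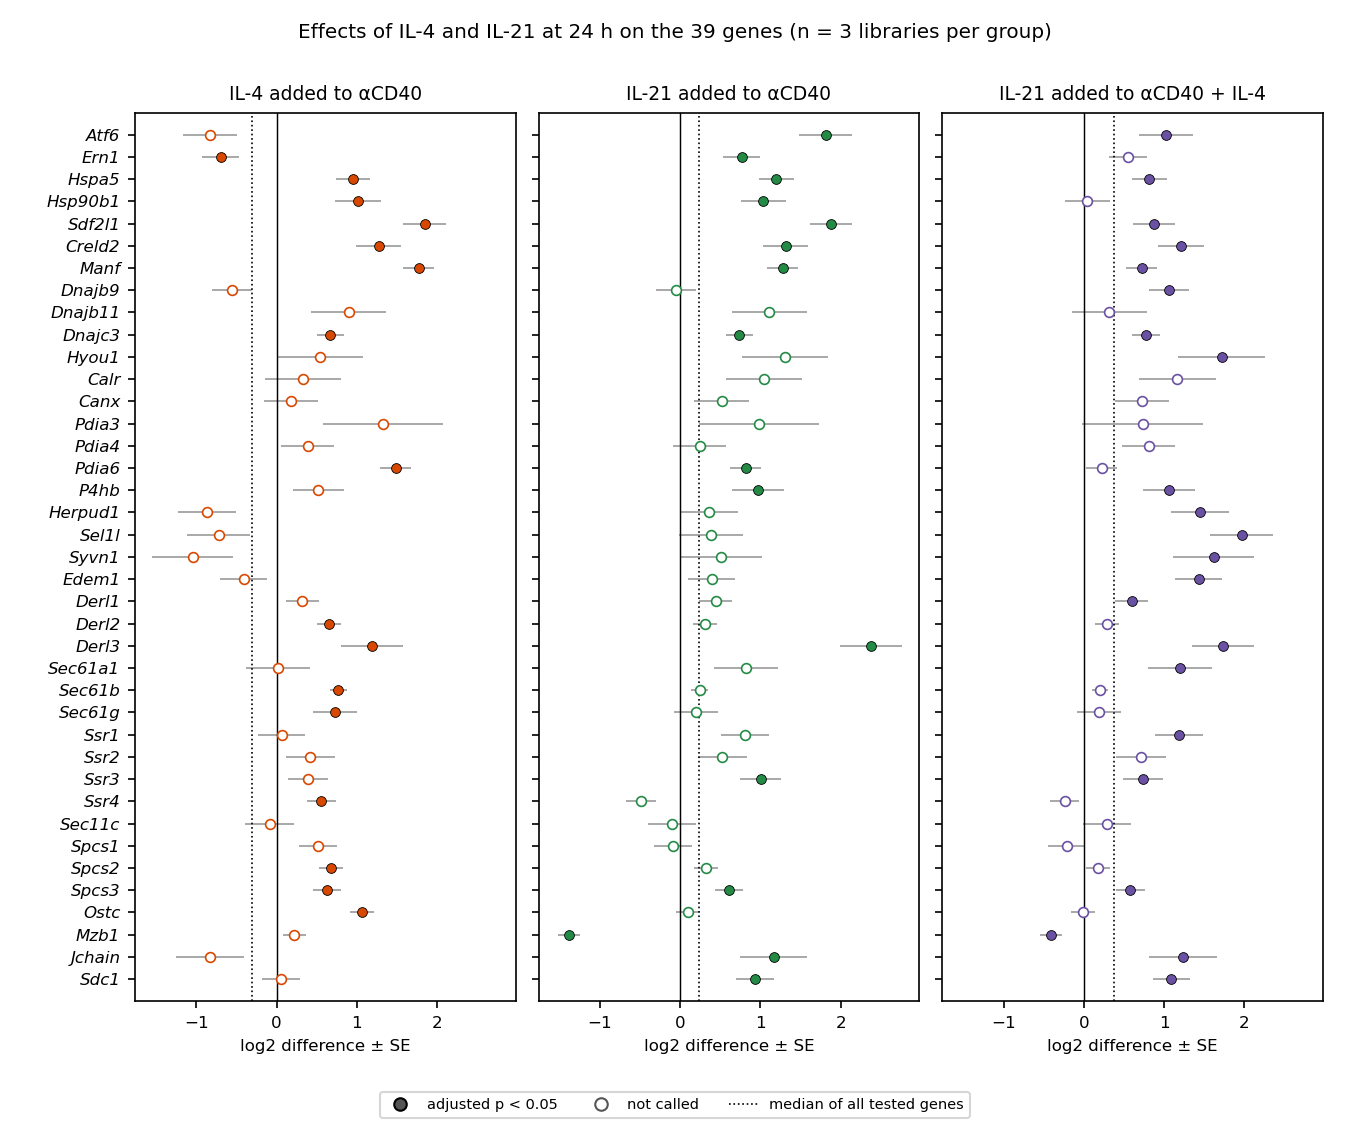
Log2 difference of TPM + 1 ± standard error for each of the 39 genes at 24 h, when IL-4 was added to anti-CD40 (left), IL-21 to anti-CD40 (middle) and IL-21 to anti-CD40 with IL-4 (right), 3 libraries per group. Filled points have an adjusted p below 0.05 and the dotted line is the median of all tested genes; Herpud1, Sel1l, Syvn1 and Edem1 are filled in the right panel only, and Sec61b, Sec61g, Ssr4 and Ostc in the left panel only.

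Whether the 2 effects of IL-21 differ was tested by an interaction term. At 6 h limma called 0 of the 39 genes, with 3 at an unadjusted p below 0.05, beside 0.148% of all tested genes called higher and 0.263% lower. At 24 h it called Mzb1 alone, beside 3.33% and 2.48%. Mzb1 fell less with IL-21 when IL-4 was present, the difference between both effects being 0.98 ± 0.20 (adjusted p = 0.00383), and this call held whichever library was left out. For the ERAD genes, whose effects were called with IL-4 and not without it, the interaction did not pass. It was 1.09 ± 0.51 (adjusted p = 0.232) for Herpud1, 1.58 ± 0.56 (adjusted p = 0.105) for Sel1l, 1.11 ± 0.71 (adjusted p = 0.4) for Syvn1 and 1.04 ± 0.41 (adjusted p = 0.154) for Edem1. With all libraries a difference between the 2 effects of IL-21 on these genes was not shown. For Sdf2l1 the estimate was -1.01 ± 0.37 (adjusted p = 0.123). Without the 2 libraries that stand apart, 3023 of all 12147 tested genes were called for the interaction at 24 h, 79.5% of them higher. The share called higher was smaller among the 39 genes, of which 5 were called, all higher. They were Mzb1, Herpud1 (1.58 ± 0.43, adjusted p = 0.0116), Sel1l (1.86 ± 0.57, adjusted p = 0.0229), Edem1 (1.39 ± 0.32, adjusted p = 0.00415) and Dnajb9 (1.40 ± 0.32, adjusted p = 0.00418), so for 3 of these ERAD genes the call rests on which libraries are used. Leaving out replicate 1 of the IL-4 group alone also gave 5 calls. After median-of-ratios rescaling Mzb1 did not pass (0.68, adjusted p = 0.277), and 2 were higher (Dnajb9 and Edem1) and 3 lower (Hsp90b1, Sdf2l1 and Manf). Of all tested genes 4.94% were then called higher and 6.19% lower. The medians with all libraries were 0.04 for the 39 genes and 0.19 for all tested genes. With the variance of the 12 libraries compared alone, 0 were called, with 7 at an unadjusted p below 0.05. Of all tested genes 1.49% were then called higher and 0.889% lower.

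The change of each cytokine effect between 6 h and 24 h was tested as well, in 3 comparisons added after the values had been seen. For IL-4, 4 of the 39 genes had a higher effect at 24 h and 0 a lower one, beside 2.12% and 5.07% of all tested genes. These were Pdia6 (1.05 ± 0.27, adjusted p = 0.0228), Ostc (0.96 ± 0.22, adjusted p = 0.00975), Mzb1 (0.92 ± 0.20, adjusted p = 0.00729) and Sec61b (0.85 ± 0.15, adjusted p = 0.00159). Pdia6 had been at 274, 225 and 159 TPM without and 378, 284 and 224 TPM with IL-4 at 6 h, where the groups overlapped. For IL-21 alone, 4 had a higher effect at 24 h and 0 a lower one, beside 3.1% and 1.34%. These were Derl3 (2.54 ± 0.54, adjusted p = 0.00674), Sdf2l1 (2.04 ± 0.37, adjusted p = 0.00154), Hsp90b1 (1.51 ± 0.40, adjusted p = 0.03) and Hspa5 (1.09 ± 0.30, adjusted p = 0.0415). Derl3 at 6 h was at 1.83, 0.757 and 1.9 TPM without and 3.67, 0.663 and 0.334 TPM with IL-21. Hsp90b1 at 6 h was at 27.1, 36.9 and 34.9 TPM without and 20.8, 22.3 and 27.2 TPM with IL-21, with both values of its IL-21 effect on opposite sides of 0 (-0.47, not called, at 6 h and 1.04 at 24 h).

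For IL-21 added to IL-4, 5 had a higher effect at 24 h and 0 a lower one, beside 3.66% and 0.576%. All but Dnajc3 (0.97 ± 0.24, adjusted p = 0.0232) belong to ERAD, namely Sel1l (2.40 ± 0.56, adjusted p = 0.0144), Derl3 (1.98 ± 0.54, adjusted p = 0.0388), Herpud1 (1.94 ± 0.51, adjusted p = 0.0312) and Edem1 (1.57 ± 0.41, adjusted p = 0.0311). At 6 h Sel1l was at 3.69, 6.35 and 4.33 TPM with IL-4 and 2.65, 3.28 and 3.76 TPM with both cytokines, and Herpud1 at 75.1, 49.99 and 38.5 TPM with IL-4 and 48.2, 38.6 and 27.2 TPM with both cytokines, so that the groups overlapped for both genes at that time. Derl3 at 6 h was at 4.95, 3.23 and 2.14 TPM with IL-4 and 3.59, 2.04 and 2.38 TPM with both cytokines. The median changes of the 39 genes were 0.28 for IL-4, 0.60 for IL-21 and 0.54 for IL-21 with IL-4, against -0.32, 0.12 and 0.33 for all tested genes. Of these 13 calls 5 held whichever library was left out (Sec61b, Ostc and Mzb1 for IL-4, and Sdf2l1 and Derl3 for IL-21 alone). With the variance of the compared libraries alone the counts were 0 for IL-4, with 7 at an unadjusted p below 0.05, and 1 for IL-21 with IL-4. Of all tested genes 0.453% and 1.44% were then called higher, and 1.18% and 0.255% lower.

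Finally each stimulation was compared between 24 h and 6 h. With anti-CD40 alone, 6 of the 39 genes rose and 3 fell, beside 16.1% and 8.17% of all tested genes, and the medians were 0.07 and 0.15. Hyou1 rose by 1.71 ± 0.54 (adjusted p = 0.0242), Syvn1 by 1.65 ± 0.51 (adjusted p = 0.0207) and Herpud1 by 1.20 ± 0.36 (adjusted p = 0.0185). Hsp90b1 fell (-0.9966 ± 0.28, adjusted p = 0.0126), as did Ostc (-0.66 ± 0.15, adjusted p = 0.00297) and Jchain (-2.20 ± 0.42, adjusted p = 0.000555). With IL-4, 10 rose and 1 fell, beside 8.82% and 16.6%, with medians of 0.42 and -0.13. The largest of these rises was that of Pdia3, a glycoprotein-specific isomerase, which was listed at 2.99, 2.36 and 0 TPM at 6 h and 23.1, 14.8 and 10.7 TPM at 24 h (2.79 ± 0.75, adjusted p = 0.00892). Sdf2l1 (1.22), Pdia6 (0.97) and Sec61b (0.70) rose and Jchain fell from 29, 30.4 and 57.2 to 2.44, 5.57 and 6.56 TPM (-2.78 ± 0.42, adjusted p = 4.96e-05).

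With IL-21, 23 rose and 1 fell between 6 h and 24 h, beside 26.2% and 9.3% of all tested genes, with medians of 0.83 and 0.24. Hyou1 rose from 6.01, 9.69 and 1.71 to 56.3, 58.5 and 27.4 TPM (2.97 ± 0.54, adjusted p = 0.000172) and Sdf2l1 from 41, 32.7 and 26.4 to 226, 246 and 196 TPM (2.72 ± 0.26, adjusted p = 5.63e-08). Herpud1 went from 37.7, 21.8 and 26.8 to 167, 193 and 122 TPM (2.45 ± 0.36, adjusted p = 1.63e-05). The lectin chaperone Calr, the most abundant of the 39 genes, went from 405, 235 and 193 to 1277, 1544 and 987 TPM (2.24 ± 0.48, adjusted p = 0.000832). Sec11c rose as well, by 1.62 ± 0.30 (adjusted p = 0.000216), and Dnajb11 by 1.57 ± 0.47 (adjusted p = 0.0112), its only call. Ostc fell from 178, 195 and 192 to 131, 108 and 168 TPM (-0.49 ± 0.15, adjusted p = 0.0156). Sec61b was called higher (0.28), but its estimate was -0.0482 and not called after median-of-ratios rescaling.

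With both cytokines, 30 rose and 1 fell, beside 20.8% and 9.46% of all tested genes, with medians of 1.15 and 0.12. All 7 ERAD genes and all 4 isomerases rose, together with 7 of 11 chaperones, 6 of 7 channel subunits and 4 of 5 signal peptidase and oligosaccharyltransferase subunits. Pdia3 was listed at 3.64, 0 and 5.7 TPM at 6 h and 24.3, 30.9 and 24.2 TPM at 24 h (3.12 ± 0.75, adjusted p = 0.00286). Hyou1 went from 17.6, 13.5 and 4.94 to 78, 91.9 and 95.2 TPM (2.93 ± 0.54, adjusted p = 0.000241), Sdf2l1 from 102, 82.5 and 57.5 to 391, 423 and 376 TPM (2.32 ± 0.26, adjusted p = 5.94e-07) and Creld2 from 79.5, 63.6 and 49.3 to 188, 219 and 198 TPM (1.66 ± 0.28, adjusted p = 0.000103). Ssr2 had its only call here (1.15 ± 0.31, adjusted p = 0.00636). Among the ERAD genes Herpud1 (2.29), Sel1l (2.24) and Syvn1 (2.20) rose most. Hspa5 rose from 657, 536 and 424 to 946, 960.1 and 942 TPM (0.84 ± 0.21, adjusted p = 0.00474). Neither sensor passed, Atf6 being at 15.8, 9.48 and 7.88 TPM at 6 h and 12.7, 14.3 and 14.6 TPM at 24 h, and Ern1 at 2.15, 1.05 and 0.684 TPM at 6 h and 0.831, 1.21 and 1.41 TPM at 24 h. Mzb1 rose (0.84 ± 0.14, adjusted p = 7.84e-05) and Jchain fell from 26.8, 21 and 48.1 to 10.04, 10.6 and 16.5 TPM (-1.25 ± 0.42, adjusted p = 0.0282). Of the further pathway genes 38 of 98 rose and 5 fell, among them 12 of 16 folding and redox genes, and Xbp1 rose by 1.58 ± 0.37 (adjusted p = 0.00209).

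Between the times, 25 of 31 calls with both cytokines and 16 of 24 with IL-21 held whichever library was left out, against 8 of 11 with IL-4 and 2 of 9 with anti-CD40 alone. With the variance of the compared libraries alone, however, 0 of the 10 rises with IL-4 passed, and the fall of Jchain was the 1 call left. Of all tested genes 2.44% rose and 1.86% fell in that fit. Without the 2 libraries that stand apart, 14 rose and 2 fell with IL-4, beside 10.4% and 32.0% of all tested genes. The share of all called genes that were higher at 24 h went from 68.7% to 55.2% with both cytokines after median-of-ratios rescaling, from 73.8% to 53.8% with IL-21, from 34.6% to 52.8% with IL-4 and from 66.3% to 52.6% with anti-CD40 alone. The members' counts of rises were then 26, 19, 17 and 6, beside 20.1%, 21.3%, 16.9% and 16.1% of all tested genes.

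**Figure D4:**
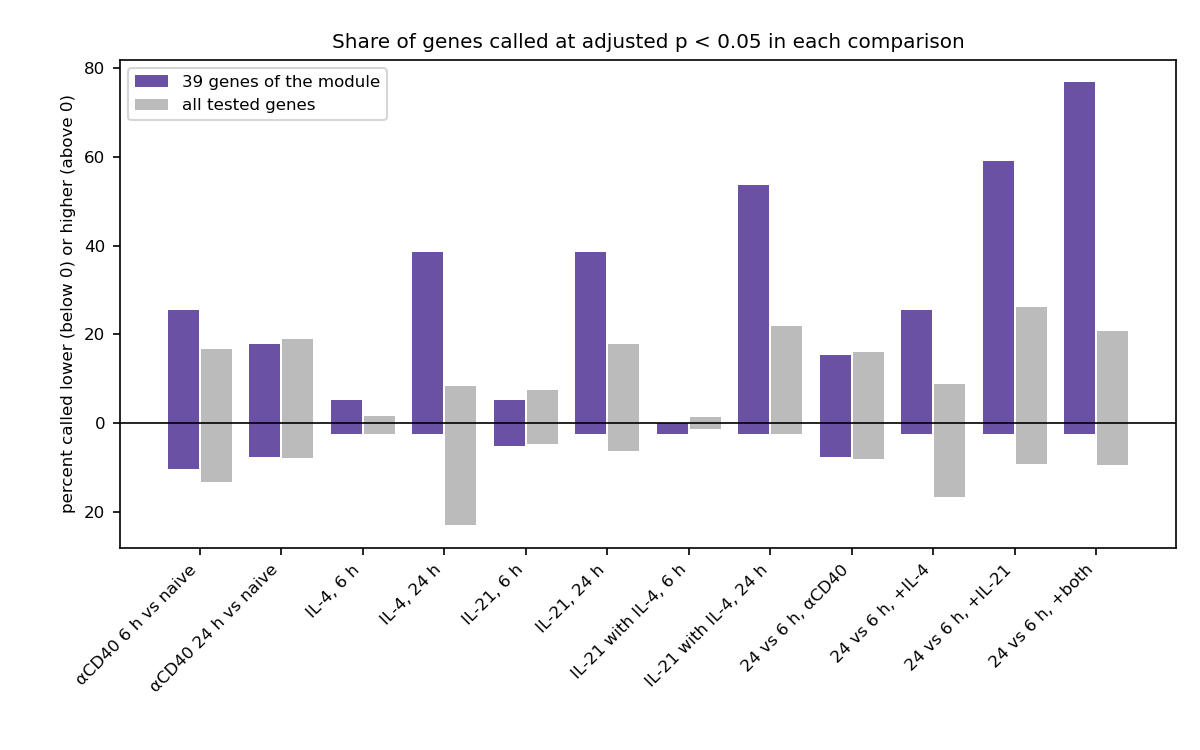
Percentage of the 39 genes (purple) and of all 12147 tested genes (grey) that were called higher (above 0) or lower (below 0) at an adjusted p below 0.05 in each of 12 comparisons. The purple bars above 0 reach 76.9% between 6 h and 24 h with both cytokines, where the grey bar is at 20.8%. They reach 53.8% when IL-21 was added to IL-4 for 24 h, where the grey bar is at 21.8%. Of the 22 calls in that comparison, 6 held whichever library was left out. After 24 h with anti-CD40 alone, against naive cells, 17.9% of the 39 genes and 18.9% of all tested genes were higher.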

How the data were processed

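The authors deposited gene-level values in TPM for 27 polyadenylated RNA libraries in 9 groups of 3, made with Salmon 1.9.0 on GRCm38 per the submitters' processing notes; the annotation and the step from transcripts to genes are not given in the sources used here. Of 35604 genes in the deposited table, 35254 matched GENCODE M21, from which symbols and positions were taken. Groups follow the labels. The 12147 genes that reached 1 TPM in 3 or more libraries were tested on log2(TPM + 1) with limma 3.58.1 in R 4.3.3, 1 mean per group, a mean-variance trend and 18 residual degrees of freedom, with Benjamini-Hochberg adjustment over all tested genes in each comparison. The procedure was tested on simulated data, but no outcome is given here, so this lends the calls no support. TPM keeps no depth, so counting error is unknown, and a share taken by a few abundant genes moves all others. Listed values summed to 766384 to 825365 per library.

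The 39 genes, the marker and pathway lists and the comparisons were chosen with earlier results of these data known, and the 3 comparisons of an effect between times were added after the values had been seen. Values in every library are given for the largest called rise and fall of each comparison and for Hspa5, Hsp90b1, Sdf2l1, Creld2, Herpud1, Ern1, Atf6, Derl3, Sec11c, Mzb1, Jchain and Sdc1. Up to 6 called genes per direction are given by log2 difference, pathway genes by counts with up to 4 examples per direction, and Xbp1, Atf4, Ddit3, Prdm1 and Irf4 by value. Other genes named were chosen after their values were seen. No label pairs libraries across groups by replicate number. The deviations of same-numbered libraries from their group means correlated above 0.1 for every pair in the 6 h comparisons of IL-4 (0.107 to 0.382), IL-21 (0.186 to 0.335) and IL-21 added to IL-4 (0.183 to 0.377), so these are also given with the number as a block. Alternatives were no filter or one at 5 TPM, a pseudocount of 0.1, 2 rescalings, no variance trend, the block, each library left out, 2 libraries left out together, and the compared libraries alone.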

Additional observations from a re-analysis of the deposited data

Results flagged for a closer look

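Each result here is a difference between 2 effects of the same contrast that passed limma's test at a Benjamini-Hochberg adjusted p below 0.05, with 3 libraries per group. The effect of IL-21 on Mzb1 at 24 h was a fall both with and without IL-4, and it was smaller with IL-4, by 0.979 on the log2 scale.

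The effect of IL-4 was higher at 24 h than at 6 h by 1.05 for Pdia6, 0.958 for Ostc, 0.923 for Mzb1 and 0.852 for Sec61b. For Mzb1 a fall with IL-4 at 6 h stands beside a difference at 24 h that did not pass. The effect of IL-21 on anti-CD40 alone was higher at 24 h by 2.54 for Derl3, 2.04 for Sdf2l1, 1.51 for Hsp90b1 and 1.09 for Hspa5. The effect of IL-21 in the presence of IL-4 was higher at 24 h by 2.40 for Sel1l, 1.98 for Derl3, 1.94 for Herpud1, 1.57 for Edem1 and 0.971 for Dnajc3. Derl3 is the only gene found in both of these lists. They compare different libraries but use the same pooled estimate of each gene's spread, so they are not independent. In the presence of IL-4 the Derl3 call was lost in 9 of 12 fits with 1 library left out.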

How the results depend on the processing

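The values are counts of the 39 genes called, as in the report unless a setting is named. With a pseudocount of 0.1, a filter at 5 TPM, which 36 of the 39 genes pass, or no variance trend, every count stayed within 1.5 times. The cause of the changes below was not tested. With the variance of the compared libraries alone, which leaves fewer residual degrees of freedom, the counts were 9 for anti-CD40 against naive at 6 h, 5 for IL-4 at 24 h, 0 for IL-21 added to IL-4 at 24 h, 1 and 0 for the interaction at 6 h and 24 h, 0 for the change of the IL-4 effect, 1 for that of IL-21 with IL-4 and 1 for 24 h against 6 h with IL-4. With no filter they were 13 for IL-21 added to IL-4 at 24 h, 1 for the interaction at 6 h, 2 for the change of each IL-21 effect and 4 for anti-CD40 between the times. Median-of-ratios rescaling gave 7 for IL-21 at 6 h, 9 for IL-21 added to IL-4 at 24 h, 5 for the interaction at 24 h, 13 for the change of the IL-4 effect and 18 for IL-4 between the times, and turned Sec61b between the times with IL-21 from 0.28 to -0.0482. It moved the median of all tested genes from -0.31 to -0.02 for IL-4 at 24 h, from 0.23 to 0.02 for IL-21 and from 0.38 to 0.000644 for IL-21 added to IL-4. It moved the share of all called genes that were higher from 57.3% to 44.4% in the interaction at 24 h, from 29.4% to 54.5% in the change of the IL-4 effect and from 86.4% to 61.8% in that of IL-21 with IL-4. The 13 calls for the change of the IL-4 effect were all higher, beside 7.51% of all tested genes. Without mitochondrial, ribosomal protein and pseudogene transcripts the count was 4 for the interaction at 24 h. Of these 3 were higher and 1 lower, beside 5.89% and 2.88% of all tested genes. For the change of the IL-4 effect there were 7, all higher, beside 2.92%. The share of all called genes that were higher was then 59.9% for IL-21 at 24 h, 78.9% for IL-21 added to IL-4 at 24 h and 60.4% for anti-CD40 against naive at 24 h.

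Without the 2 libraries that stand apart (replicate 1 of the naive group and of IL-4 at 24 h) the counts were 20 for anti-CD40 against naive at 24 h, 5 for IL-4 at 6 h, 1 and 5 for the interaction at 6 h and 24 h, and 12, 10 and 18 for the changes of the effects of IL-4, IL-21 and IL-21 with IL-4. For the change of the IL-4 effect, 9 were higher and 3 lower, beside 5.86% and 30.7% of all tested genes. All calls were higher for IL-21, beside 6.51%, and for IL-21 with IL-4, beside 29.8%.

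With the replicate number as a block, which no label pairs, the counts were 2 for IL-21 added to IL-4 at 6 h, 3 for the interaction at 24 h, and 9 and 12 for the changes of the effects of IL-21 and of IL-21 with IL-4. The 9 and 12 were all higher, beside 4.17% and 5.22% of all tested genes. For the interaction 2 were higher and 1 lower, beside 4.29% and 3.05%. For IL-4 at 24 h 15 rose and 6 fell with the block, beside 9.04% and 25.5% of all tested genes. Atf6, Herpud1, Syvn1, Dnajb9 and Jchain fell besides Ern1. The block ended 0 of 175 calls of single genes, and 23 of 27 libraries correlated best with libraries of their own number.

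Leaving out 1 library gave 8 to 16 and 8 to 18 for anti-CD40 against naive at 6 h and 24 h, 3 to 4 and 12 to 22 for IL-4, 2 to 3 and 12 to 16 for IL-21, 0 to 1 and 7 to 27 for IL-21 added to IL-4, 0 and 1 to 5 for the interaction. The ranges were 3 to 12, 2 to 5 and 0 to 17 for the changes of the effects of IL-4, IL-21 and IL-21 with IL-4, and 2 to 11, 9 to 16, 18 to 27 and 27 to 29 between the times with anti-CD40 alone, IL-4, IL-21 and both. The libraries that moved a count by over 1.5 times are these. For anti-CD40 against naive at 6 h, naive replicates 2 and 3 gave 8 each and anti-CD40 replicates 1 and 2 gave 9 each, and at 24 h naive replicate 1 gave 18. For IL-21 at 6 h, anti-CD40 replicate 1 gave 2. For IL-21 added to IL-4 at 6 h, IL-4 replicate 1 and replicate 2 with both cytokines gave 0 each, with 4 at an unadjusted p below 0.05 in limma. At 24 h, IL-4 replicates 2 and 3 gave 8 and 7, and replicates 2 and 3 with both cytokines gave 12 each. For the interaction at 24 h, IL-4 replicate 1 gave 5 and IL-21 replicate 2 gave 2. For the change of the IL-4 effect, IL-4 24 h replicate 1 gave 12. For that of IL-21, anti-CD40 24 h replicate 2, IL-21 6 h replicate 2 and IL-21 24 h replicate 1 gave 2 each. For that of IL-21 with IL-4, IL-4 24 h replicates 1, 2 and 3 gave 17, 1 and 0, the last with 13 at an unadjusted p below 0.05 in limma. IL-4 6 h replicates 1 and 2 gave 1 and 2 there, replicates 2 and 3 with both cytokines at 6 h gave 2 and 1, and replicates 1, 2 and 3 with both at 24 h gave 2, 1 and 1. For anti-CD40 between the times, replicates 2 and 3 at 6 h gave 2 and 3, and replicates 1 and 3 at 24 h gave 5 and 3.

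Of 175 calls of single genes, 33 were lost under median-of-ratios rescaling, 29 with no filter, 70 with the compared libraries alone, 21 without the 3 abundant classes of transcript, 13 with a pseudocount of 0.1 and 6 with no variance trend. Leaving out 1 library ended 258 of 1134 combinations of a call and a library. The depth of the libraries is unknown, so the counting error of Sdc1, Ern1, Pdia3 and Dnajb11, all listed at low TPM, cannot be given.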
